A study of Mus musculus with 6 samples.

Results

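The 10 genes of one innate immune pathway followed here were measured in mouse liver. They are the sensors Nlrp12, Nlrp3, Nlrp6, Nlrx1 and Nod1, the adaptor Pycard, the protease Casp1, the cytokine Il18, the interleukin-1 receptor Il1r1 and the receptor antagonist Il1rn. These are 10 of the 18193 genes that the array measured with a probe set carrying a single gene symbol. All 15 probe sets annotated to them were kept, 3 each for Pycard and Il1rn, 2 for Il1r1 and 1 for each other gene. The group was selected on strain differences already seen in these same arrays, chiefly those of Nlrp12 and Il1r1. The differences between the strains in these 10 genes are therefore given as descriptions, without a test.

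The samples were whole livers of 18-week-old male mice on ordinary chow. The 3 NZO samples come from the New Zealand Obese strain, a polygenic model that becomes obese and diabetic. The 3 BKS samples, whose titles read wt, come from C57BL/KS, which served as the control strain. The labels name no transgene or drug in either strain, and the design text describes the animals as littermates without saying which belong together. Each sample was run on 1 Affymetrix array, and nothing in the labels says outright that every array is a separate animal, so the spread may in part be technical.

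NLR proteins are cytosolic sensors of microbial products and cell damage. Some of them recruit the adaptor ASC (Pycard), which gathers caspase-1 into an inflammasome that cleaves and releases interleukin-1 beta and interleukin-18. Interleukin-1 then acts on other cells through its receptor Il1r1, which in liver switches on acute phase genes in hepatocytes, while the antagonist Il1rn occupies the receptor without signalling. Others of the NLR family, among them Nlrp12 and Nlrx1, are described in mice as restraining inflammatory signalling.

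Nlrp12 and Il1r1 were the genes with wide gaps between the strains, so the stretches of DNA before their annotated starts are shown here. They cover the 250 bases upstream of each start in RefSeq, build GRCm38.p6, which is the C57BL/6J genome and not that of either strain, and are written 5′ to 3′ on the gene's strand. Nlrp12 lies on the minus strand at chr7:3249741-3249990. Il1r1 has 2 annotated starts on the plus strand, whose windows are chr1:40224830-40225079 and chr1:40266336-40266585. Capitals mark a match to one of 5 short motifs that were searched on both strands.
Nlrp12: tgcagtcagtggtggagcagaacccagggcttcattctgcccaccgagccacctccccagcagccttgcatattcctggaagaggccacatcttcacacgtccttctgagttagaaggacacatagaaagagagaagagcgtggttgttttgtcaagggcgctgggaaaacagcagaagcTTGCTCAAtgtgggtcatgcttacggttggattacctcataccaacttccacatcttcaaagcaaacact
Il1r1, first start: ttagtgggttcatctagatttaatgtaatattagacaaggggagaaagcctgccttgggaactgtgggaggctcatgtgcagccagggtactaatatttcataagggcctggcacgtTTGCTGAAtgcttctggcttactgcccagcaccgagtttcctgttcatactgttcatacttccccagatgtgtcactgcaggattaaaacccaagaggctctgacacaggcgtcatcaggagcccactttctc
Il1r1, second start: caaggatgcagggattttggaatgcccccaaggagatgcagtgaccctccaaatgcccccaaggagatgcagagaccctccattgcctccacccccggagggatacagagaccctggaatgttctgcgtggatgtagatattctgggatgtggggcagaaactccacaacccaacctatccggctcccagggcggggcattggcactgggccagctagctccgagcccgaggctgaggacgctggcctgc

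The marked letters in the Nlrp12 window and in the first Il1r1 window both match TTGCNNAA, the core bound by C/EBP factors. That motif was found in 9.56% of 32851 windows of the same length, and among the 16 windows of the 10 genes it was in 3, the third being Pycard. The NF-kB-type motif GGNNTTTCC was in both Nlrp3 windows and 1 Il1rn window (4.93% of all windows). The AP-1 motif TGANTCA was in 1 window each of Il1rn and Nlrp6 (6.75%), and the PU.1 motif GAGGAAGT in that of Pycard (2.44%). The FOXA motif TGTTTAC was in none of the 16 (3.17%). No other of the 5 motifs matched in the windows printed, so none overlapped, and a match says only that the letters occur there.

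Expression is given on the log2 scale of RMA, which corrects background, makes the arrays' distributions alike and summarises each probe set, so a step of 1 is a doubling. Array medians lay between 5.08 and 5.22, and 2 arrays of the same strain correlated at 0.976 to 0.994, against 0.962 to 0.982 for NZO with BKS. Hepatocyte markers identified the tissue, with albumin (Alb) at 13.98 to 14.97 in NZO and 14.82 to 14.85 in BKS. NZO replicate 1 stood apart, since its 9 hepatocyte markers averaged 12.87, against 13.94 and 13.93 on the other NZO arrays and 13.83 to 13.94 on the BKS arrays. NZO replicate 1 and BKS replicate 1, both titled number 1, had the lowest spiked-in hybridization controls (8.51 and 9.64, against 10.42 to 11.75). The 3' minus 5' signal of beta-actin, a measure of RNA truncation, was 1.29 to 1.39 in NZO and 1.72 to 2.33 in BKS, so it moved with strain. The same measure for Gapdh also did, at -0.04 to 0.14 in NZO and 0.45 to 0.98 in BKS. A 3' probe set for 18S ribosomal RNA was at 11.92 and 9.47 on BKS replicates 2 and 3, against 4.93 to 6.14 on the other 4 arrays. The part of these measures in the differences below was not tested.

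Among the NLR sensors, Nlrp12 differed widely between the strains and the other sensors did so little. Nlrp12, a pyrin-domain NLR of myeloid cells that dampens NF-kB signalling in mice, was at 5.80, 5.44 and 5.83 in NZO and at 9.54, 10.39 and 9.31 in BKS. All NZO values sat a little above the array medians, and the gap from the highest NZO to the lowest BKS array was 3.48. The log2 fold change was -4.06 with a standard error of 0.29, or 16.6-fold lower in NZO, which ranked 5 of 18193 genes from the most negative. Because the NZO level lies only a little above the array medians and no detection calls are given, this fold rests on a low value. The difference was of like size between the arrays titled number 1 (-3.74) and between the other 4 arrays (-4.21). Nlrp12 had 1 probe set, so no other probe set can be set beside it. In whole liver, fewer cells of a type and less RNA per cell cannot be told apart, here or below. The sequence under the probes in either strain was not examined.

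Nlrp3, the sensor of the best studied inflammasome, was at 6.65, 6.14 and 6.53 in NZO and at 6.42, 5.91 and 6.23 in BKS. The strains overlapped, with a log2 fold change of 0.25 (standard error 0.21). It was 0.11 without BKS replicate 2, 0.15 without NZO replicate 1 and 0.40 without NZO replicate 2. Nlrp6, a sensor of epithelia and of liver, was at 8.82, 9.76 and 9.52 in NZO and at 9.56, 9.80 and 10.06 in BKS. These values overlapped too, and the log2 fold change of -0.44 (standard error 0.27) was -0.16 without NZO replicate 1 and -0.29 without both number 1 arrays. Repeated quantile normalization and cyclic loess gave -0.14 and -0.13.

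Nlrx1, an NLR of mitochondria, was at 7.03, 7.85 and 7.45 in NZO and at 7.81, 7.98 and 8.14 in BKS, a log2 fold change of -0.54 (standard error 0.23). NZO replicate 2 lay just above BKS replicate 1, so the strains overlapped, and the value was -0.33 without NZO replicate 1 and -0.35 with cyclic loess. Nod1, which senses fragments of bacterial peptidoglycan, was at 6.63, 6.74 and 7.05 in NZO and at 7.05, 6.87 and 7.60 in BKS. Its log2 fold change was -0.37 (standard error 0.23) and -0.16 without BKS replicate 3.

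**Figure D1:**
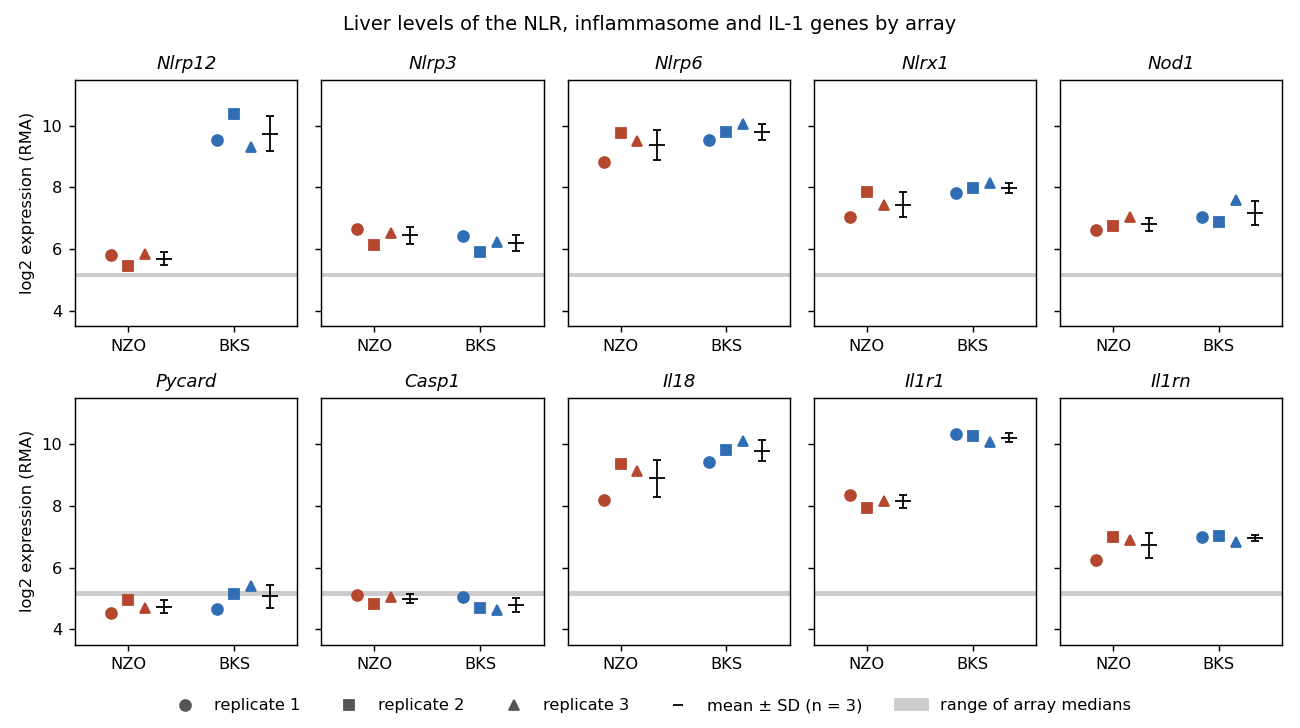
Log2 RMA level of each of the 10 genes on every array, with NZO to the left of BKS, symbols for replicates 1 to 3, a bar for the mean ± SD (n = 3) and a grey band for the range of array medians (5.08 to 5.22). Nlrp12 and Il1r1 show wide gaps between the strains, Il18 a gap of 0.09, and the other 7 genes overlap.

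The adaptor and the protease of the inflammasome gave weak signal in both strains. Pycard, which encodes ASC, was at 4.53, 4.96 and 4.70 in NZO and at 4.65, 5.13 and 5.41 in BKS, below its array's median on 4 of 6 arrays. Its log2 fold change was -0.33 (standard error 0.23), and it was -0.16 without BKS replicate 3 and -0.54 without BKS replicate 1. The other probe sets of Pycard were dimmer still, with log2 fold changes of 0.19 and 0.07, so the 3 probe sets gave no common direction. Casp1 was at 5.10, 4.83 and 5.03 in NZO and at 5.06, 4.68 and 4.61 in BKS, below the array's median on all 6 arrays. The strains overlapped in Casp1, with a log2 fold change of 0.20 (standard error 0.18), which was 0.12 without BKS replicate 3 and 0.34 without BKS replicate 1. At such levels a difference in Pycard or Casp1 could have gone undetected.

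Il18, the cytokine that caspase-1 matures, was well above the array medians in both strains. It was at 8.20, 9.35 and 9.13 in NZO and at 9.44, 9.81 and 10.12 in BKS. All 3 NZO arrays were lower, but NZO replicate 2 came within 0.09 of BKS replicate 1. The log2 fold change was -0.90 (standard error 0.33), or 1.86-fold lower in NZO, and it was -0.55 without NZO replicate 1 and -0.59 with cyclic loess. Between the number 1 arrays the difference was -1.24 and between the other arrays -0.73.

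At the receptor level, Il1r1 was clearly separated and Il1rn was not. Il1r1, the signalling receptor for interleukin-1 alpha and beta, was at 8.34, 7.95 and 8.15 in NZO and at 10.34, 10.26 and 10.07 in BKS. The strains were 1.73 apart at their closest, against an SD of 0.20 in NZO and 0.14 in BKS (n = 3 each). The log2 fold change was -2.08 (standard error 0.17), or 4.22-fold lower in NZO, which ranked 42 of 18193 genes from the most negative. Both strains lay far above the array medians, so this fold does not rest on a low value. It was -2.00 between the number 1 arrays and -2.12 between the others.

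The second probe set of Il1r1 did not show that difference. It was at 3.69, 4.04 and 3.74 in NZO and at 3.53, 3.68 and 3.62 in BKS, with a log2 fold change of 0.21 in the opposite direction. Its mean lay at the 5.87th percentile of all named probe sets, near the bottom of the scale.

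Il1rn, the secreted or intracellular antagonist of the receptor, was at 6.26, 6.998 and 6.91 in NZO and at 6.99, 7.02 and 6.84 in BKS. The strains overlapped, and the log2 fold change of -0.23 (standard error 0.22) became 0.00 without NZO replicate 1 and 0.02 without both number 1 arrays, and was -0.37 without NZO replicate 2. Its other probe sets gave 0.14 and -0.23.

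In the fit over all genes, 2 of the 10 genes, Nlrp12 and Il1r1, had an adjusted p below 0.05, both lower in NZO, where 0.742% of all genes passed in either direction. In 3 of the 10, Nlrp12, Il1r1 and Il18, the arrays of the strains did not overlap, as was so for 17.0% of all genes. The number 1 arrays were also taken as a batch block, which is an assumption, since no label names a batch. The block leaves each fold change as it is and changes only its error. Il18 then joined Nlrp12 and Il1r1, making 3 of 10 where 6.55% of all genes passed. Since this contrast chose the genes, nothing is read from these counts. The median log2 fold change of the 10 was -0.40 and that of all genes -0.03, with 8 of the 10 below 0.

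**Figure D2:**
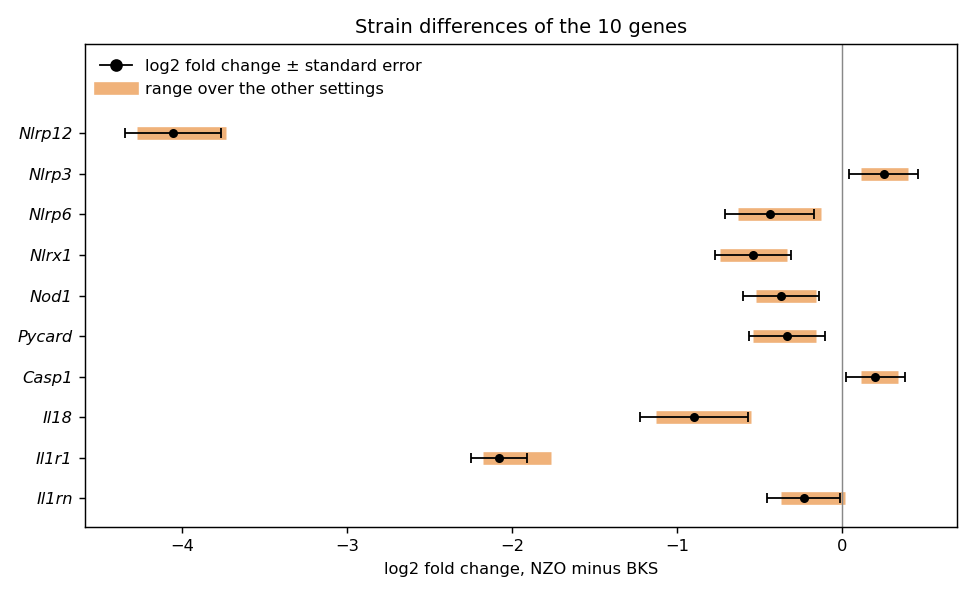
Log2 fold change (NZO minus BKS) of each of the 10 genes with its standard error in black, over the orange range of values from the other processing settings and left-out arrays. Nlrp12 stayed between -4.27 and -3.74 and Il1r1 between -2.18 and -1.76, while the range of Il1rn reached 0.02.

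The replicates of NZO contributed unevenly. NZO replicate 1 was the lowest NZO array in 6 of the 10 genes and NZO replicate 2 in the other 4. For Nlrp6, Nlrx1, Il18 and Il1rn, which lay low on NZO replicate 1, that array also had the low hepatocyte markers given above, and the part of this in their values was not tested. For Nlrp12 and Il1r1, leaving out NZO replicate 1 gave -4.11 and -2.18, as large as with it.

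Il1r1 sits in a chromosomal cluster with its relatives, and the relatives measured beside it gave small differences. The adjacent genes with a probe set were Il1r2, a decoy receptor for interleukin-1, and Il1rl2, the receptor of interleukin-36. Il1r2 was at 5.72, 5.10 and 5.21 in NZO and at 5.28, 5.26 and 5.08 in BKS (log2 fold change 0.14, adjusted p = 0.862). Il1rl2 was at 5.11, 4.84 and 4.92 in NZO and at 4.93, 4.89 and 4.84 in BKS (log2 fold change 0.07, adjusted p = 0.917). Both were near or below the array medians, so little could be seen in them. Next to Nlrp12, the membrane protein gene Myadm was at 7.66, 8.46 and 7.68 in NZO and at 8.73, 8.96 and 9.13 in BKS. Its arrays did not overlap, and its log2 fold change of -1.01 did not pass (adjusted p = 0.171). AU018091, on the other side of Nlrp12, was near the bottom of the scale (3.62 to 4.19 in NZO and 3.85 to 3.996 in BKS, adjusted p = 0.971). These 4 neighbours were chosen by their position after the values of the 10 genes were known.

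The other genes of the pathway were taken as 5 lists with 145 genes, of which 130 were measured. Among them 1 rose in NZO, 2 fell and 127 did not pass, which is 2.31% passing against 0.742% of all genes. The lists were chosen with earlier results of these data known, so nothing is read from that share. Their median log2 fold change was -0.11.

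Of 17 other NLR genes, 1 fell, none rose and 16 did not pass, with a list median of 0.05. The one that fell was Nlrc5, a transactivator of MHC class I genes. It was at 5.91, 6.48 and 5.88 in NZO and at 7.61, 7.57 and 7.56 in BKS, without overlap (log2 fold change -1.49, standard error 0.20, adjusted p = 0.0232). Nlrc5 did not pass when any BKS array or NZO replicate 3 was left out (adjusted p = 0.0714 to 0.177). A mean below 6 was seen for 15 of the 17, so the list says little about most of the family in liver.

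Of 31 inflammasome and NOD partners, 1 rose, none fell and 30 did not pass (median -0.16). Serpinb1a, an inhibitor of the serine proteases of neutrophil granules, was at 6.65, 7.34 and 6.55 in NZO and at 4.64, 5.05 and 4.89 in BKS. NZO lay above BKS on every array (log2 fold change 1.99, standard error 0.24, adjusted p = 0.0184), but the call was lost without any BKS array or NZO replicate 3 (adjusted p = 0.0575 to 0.1198). Its second probe set gave 0.62 near the bottom of the scale (adjusted p = 0.148 over all probe sets). Gsdmd, whose cleaved form makes the pores of pyroptosis, did not pass at -0.77 (adjusted p = 0.469), nor did the Nlrp3 partner Nek7 at -0.27 (adjusted p = 0.795) or the thioredoxin-binding Txnip at 0.61 (adjusted p = 0.661).

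None of 15 other ligands and receptors of the IL-1 family passed (median 0.06), with 9 of them below a mean of 6. The values with the smallest p were Il18bp, the secreted binder of interleukin-18, at 0.38 (adjusted p = 0.482) and Il1b at 0.42 (adjusted p = 0.523). Il18bp was at 7.26, 7.58 and 7.11 in NZO and at 7.09, 6.81 and 6.89 in BKS. NZO replicate 3 lay barely above BKS replicate 1, and 17.0% of all genes likewise did not overlap. Il18 and Il18bp lay in opposite directions. Il1rap, the accessory chain that Il1r1 needs for signalling, was high in both strains, at 11.17, 12.26 and 12.06 in NZO and 12.01, 12.34 and 12.30 in BKS. Its log2 fold change of -0.39 did not pass (adjusted p = 0.689).

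None of 35 genes of IL-1 receptor signalling passed either (median -0.19). Of the 35, 26 were below 0, beside 10027 of all 18193 genes, and in 7 all NZO arrays lay below all BKS arrays, beside 1976 of all genes. The list averaged 7.09, 7.63 and 7.45 in NZO and 7.55, 7.71 and 7.67 in BKS, so NZO replicate 1 was the lowest and the strains overlapped. Bcl3, a nuclear partner of NF-kB, was at 7.60, 8.33 and 7.66 in NZO and at 9.18, 9.38 and 8.89 in BKS. Its log2 fold change of -1.29 did not pass (adjusted p = 0.0785), but did with the batch block (adjusted p = 0.0144). Tab3, which links TRAF6 to the kinase TAK1, was at -0.62 (adjusted p = 0.281). The adaptor Myd88 was at -0.52 (adjusted p = 0.485), the kinase Irak1 at -0.59 (adjusted p = 0.393) and the NF-kB subunit Rela at -0.61 (adjusted p = 0.449). In the other direction lay 9 of the 35, the most positive being Map3k14 at 0.41 (adjusted p = 0.570).

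Of 32 genes that IL-1 and NF-kB can switch on, 1 fell, none rose and 31 did not pass. Their median was -0.31 with 23 below 0, beside -0.03 and 10027 of all 18193 genes. The list averaged 7.60, 8.24 and 7.99 in NZO and 8.89, 8.47 and 8.22 in BKS, with NZO replicate 1 lowest and BKS replicate 1 highest. The strains overlapped, since BKS replicate 3 lay just below NZO replicate 2. Saa3, an acute phase serum amyloid, was at 7.79, 7.80 and 7.67 in NZO and at 9.14, 9.32 and 9.001 in BKS. The 2 strains were far apart relative to their spread (log2 fold change -1.40, standard error 0.15, adjusted p = 0.0113). Saa3 did not pass without NZO replicate 3, BKS replicate 2 or BKS replicate 3 (adjusted p = 0.0610 to 0.0909). Lcn2, an iron-sequestering acute phase protein, was at 5.27, 5.02 and 4.85 in NZO and at 11.51, 7.45 and 6.73 in BKS. BKS replicate 1 was far above the other BKS arrays, and the log2 fold change of -3.52 did not pass (adjusted p = 0.279). Socs3, a feedback inhibitor of cytokine signalling, was at -2.21 (adjusted p = 0.151).

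**Figure D3:**
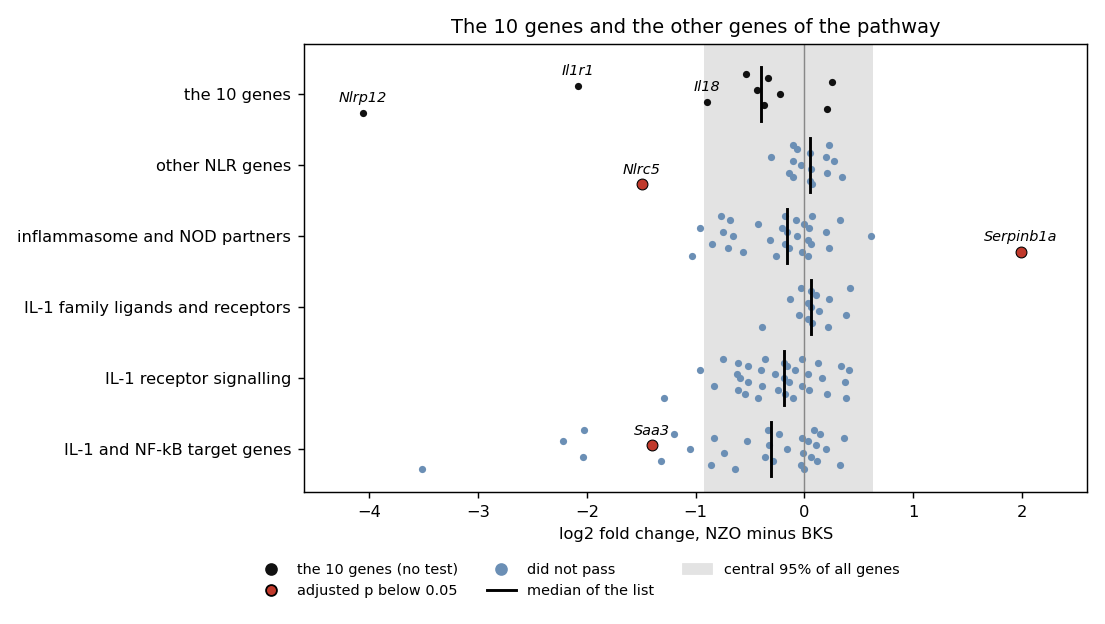
Log2 fold changes (NZO minus BKS) of the 10 genes (black) and of the 5 other pathway lists, with genes past an adjusted p of 0.05 in red, list medians as black bars and the central 95% of all genes in grey (-0.93 to 0.63). Nlrc5, Saa3 and Serpinb1a are the 3 red points, and Nlrp12 at -4.06 and Il1r1 at -2.08 lie left of the grey band.

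Marker lists of the cell types that liver holds are given beside these results. Neutrophils, in which mouse Nlrp12 is expressed, showed no marker past the test among 12 measured, with a list median of 0.05, and 10 of the 12 had a mean below 6. The neutrophil list averaged 5.32, 5.38 and 5.53 in NZO and 5.59, 5.31 and 5.19 in BKS, overlapping. S100a8 was at 4.71 to 5.32 in NZO and 4.63 to 5.64 in BKS. Camp at 0.37 (adjusted p = 0.471) and Mmp9 at -0.27 (adjusted p = 0.579) did not pass. The strains did not overlap in either, as was so for 17.0% of all genes. None of 14 Kupffer cell and macrophage markers passed (median 0.03), and the list averaged 7.36 to 8.28 in NZO and 7.30 to 8.11 in BKS. The macrophage receptor Vsig4, the most positive of the 14, was at 1.08 (adjusted p = 0.480), with overlapping strains. In this list 9 markers were above 0 and 5 below, the lowest being Marco at -0.30. None of 7 monocyte and dendritic cell markers (median 0.17) or of 11 lymphocyte markers (median 0.07) passed. The part of these cells in the Nlrp12 difference was not tested.

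Sinusoidal endothelial cells express Il1r1, and their markers had values in the other direction. All 9 measured were above 0 (median 0.45), none passed, and the list averaged 6.97, 7.74 and 7.17 in NZO and 6.93, 6.82 and 6.62 in BKS. Stab2 was at 0.92 (adjusted p = 0.200) and Pecam1 at 0.71 (adjusted p = 0.132). Hepatocyte markers had a median of -0.38, with 8 of 9 below 0 and none past the test, and Hnf4a was at -0.39 (adjusted p = 0.576). Of the NZO arrays, replicate 1 alone had a low hepatocyte average, while the other NZO arrays (13.94 and 13.93) lay close to BKS (13.83 to 13.94). None of the 10 stellate cell markers (median 0.09), 6 cholangiocyte markers (median 0.11) or 4 adipocyte markers (median 0.18) passed. The part of cell composition in the values of the 10 genes, Il1r1 included, was not tested.

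**Figure D4:**
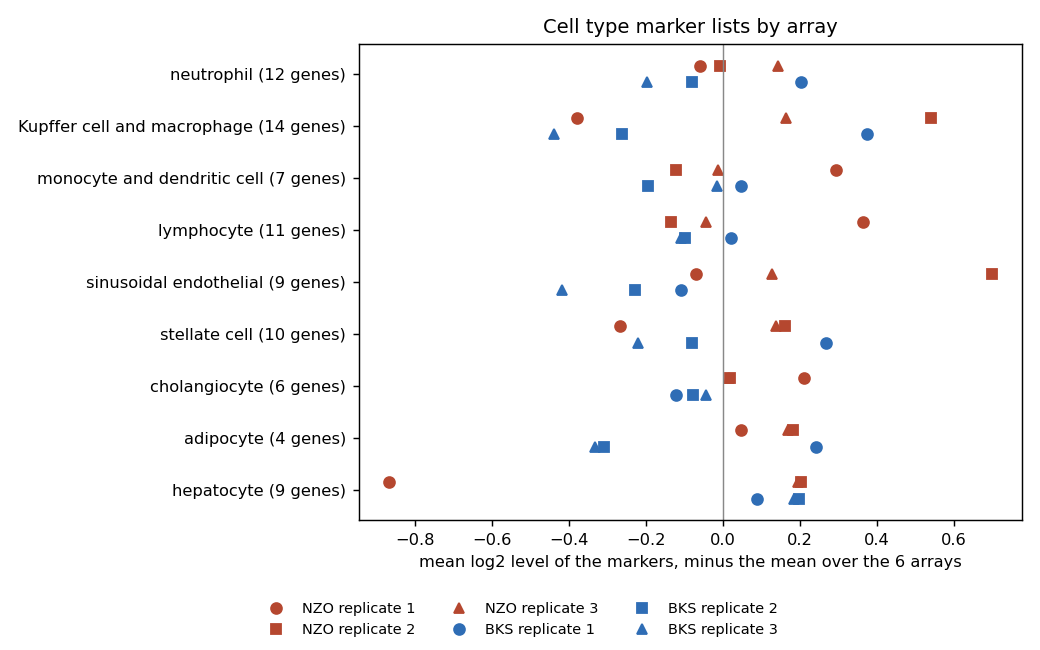
Mean log2 level of each cell type marker list on every array, minus its mean over the 6 arrays, with NZO in red above BKS in blue and symbols for the replicates. The list averages of sinusoidal endothelial and cholangiocyte markers were higher on every NZO array than on any BKS array. Taken singly, 4 of 9 endothelial and 0 of 6 cholangiocyte markers were so, beside 1112 of all 18193 genes. The cholangiocyte average of NZO replicate 1 includes Epcam at 9.78. Hepatocyte markers of NZO replicate 1 were low, and the neutrophil lists of the strains overlapped.

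Genes were ranked by how close their pattern over the 6 arrays lay to that of Nlrp12 or Il1r1. The measure was the root mean square difference of log2 values, each gene centred on its own mean. It was taken over 9332 genes with a mean of at least 6 over both strains, with symbols of predicted genes and clones left out. The closest genes all share the 6 arrays and the strain difference, so this describes the arrays. Closest to Nlrp12 were Cap1 (0.52), Zfp874a (0.61), Xaf1 (0.68), Trim30d (0.69) and the pseudogene Serpina4-ps1 (0.69). Cap1, Zfp874a, Xaf1 and Trim30d met the mean of 6 only through BKS, with NZO means of 5.59, 5.09, 5.76 and 4.61. Serpina4-ps1 was above 6 in both strains. Cap1, an actin regulator, was at 5.82, 5.28 and 5.65 in NZO and at 8.76, 8.95 and 9.28 in BKS. The 5 had log2 fold changes of -3.97 to -2.88, against -4.06 for Nlrp12. Xaf1 and Trim30d each have a second probe set that did not share it (1.17 and 0.04).

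Closest to Il1r1 were Acpp (0.24), Rpl14 (0.24), Foxa1 (0.25), Dusp23 (0.26) and F2r (0.30). Acpp and Rpl14 met the mean of 6 only through BKS, with NZO means of 4.91 and 5.76. Foxa1, Dusp23 and F2r were above 6 in both strains. Foxa1, a pioneer transcription factor of hepatocytes, was at 8.52, 8.03 and 8.13 in NZO and at 10.07, 10.77 and 9.93 in BKS. F2r, the thrombin receptor, was at 8.63, 9.12 and 8.70 in NZO and at 10.71, 10.70 and 10.83 in BKS, and its second probe set gave -1.49 against -1.93. The other probe sets of Acpp gave 0.02 and -0.37, against -2.49 from the one counted here.

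**Figure D5:**
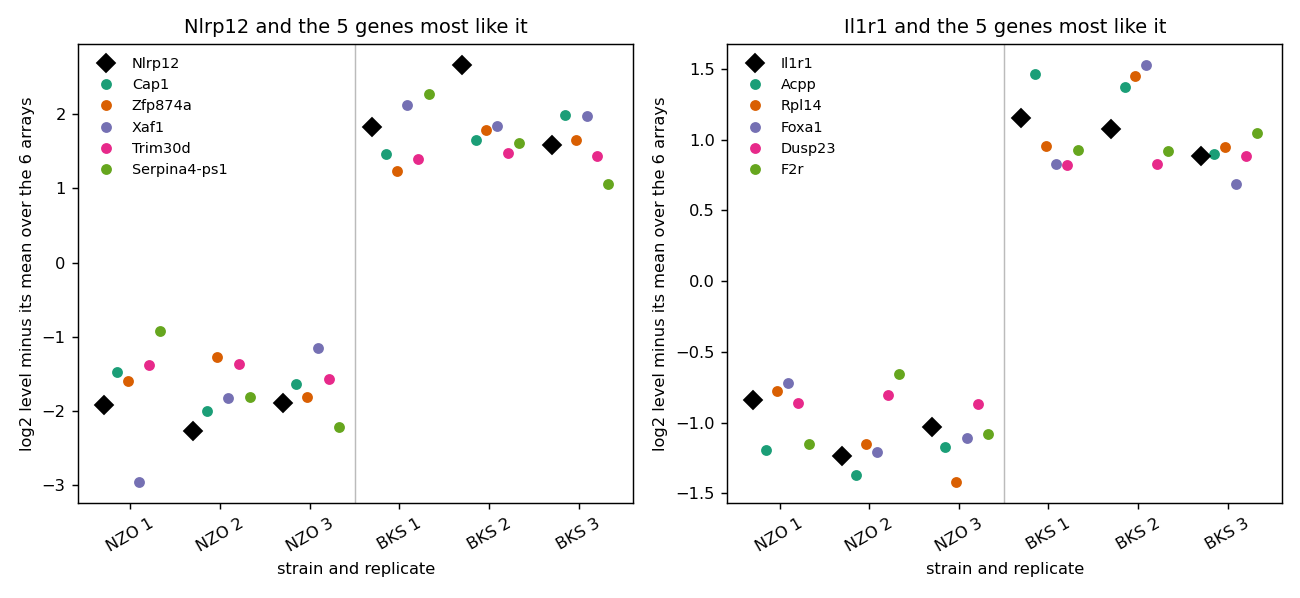
Log2 level minus its own mean over the 6 arrays for Nlrp12 (left) and Il1r1 (right), as black diamonds, and for the 5 genes closest to each, as coloured points. In every gene shown the 3 NZO values lie below 0 and the 3 BKS values above it and the log2 fold change of Nlrp12, -4.06, is more negative than those of the 5 genes beside it (-3.97 to -2.88).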

How the data were processed

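Liver RNA of NZO and BKS mice was hybridised to Affymetrix arrays with 45101 probe sets, 3 arrays for each strain. The submitters' processing notes name RMA and Affymetrix Expression Console for the deposited log2 values, and versions are not given in the sources used here. Files hold no detection calls, and precision is limited by how few arrays there are. Arrays were grouped by the strain label, and replicate numbers are names in accession order.

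Probe sets were named from the platform annotation with current RefSeq symbols (34945 with 1 symbol, 932 with several and 9160 not listed, both left out, as were 64 controls). For each of 18193 genes the probe set whose mean was highest stood for the gene, and 18032 matched RefSeq. The strain contrast was fitted by limma 3.58.1 under R 4.3.3 (functions lmFit and eBayes, two-sided, all 6 arrays, no covariate), with Benjamini-Hochberg adjustment over all genes and a threshold of 0.05. Standard errors are limma's, those of further probe sets come from a fit over all named probe sets. The procedure was tested on simulated data.

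The 10 genes, the lists and the rules were chosen with earlier results of these data known. In each pathway list the genes named are those past the test, or the 2 of smallest p if there were none, in each marker list up to 2, and others are named for their role, after values were seen. Of the lists' genes, those without a value were not analysed here. The 15 alternatives changed normalization, filter, probe set choice, variance model, array weights, array batch and arrays included. Promoter windows were read from RefSeq, where all 10 genes matched. Python 3.11.15 and matplotlib 3.10.9 made the figures.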

Additional observations from a re-analysis of the deposited data

How the results depend on the processing

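No paired analysis was possible because the titles of the strains share only the number 1. Counts of genes higher and lower in NZO (59 and 76) were 212 and 210 with repeated quantile normalization, 218 and 191 with cyclic loess, 89 and 134 with the probe set of highest variance, 121 and 160 with a trended robust variance, 399 and 899 with array weights, 275 and 917 with the array batch block and 363 and 549 among the 2 against 2 arrays without number 1. With 1 array left out they ran from 10 to 150 and from 14 to 108. The count of other pathway genes that were higher (1) was 0 when genes with a mean under 6 were left out, since Serpinb1a averaged 5.85, and 0 to 1 with 1 array left out. The count that was lower (2) was 4 with repeated quantile normalization, 12 with array weights, 14 with the batch block, 5 among the 2 against 2 arrays and 0 to 3 with 1 array left out. Repeated quantile normalization and cyclic loess moved Il1r1 to -1.76 and -1.78, Nlrp6 (-0.44) to -0.14 and -0.13, Il18 (-0.90) to -0.63 and -0.59 and Nlrx1 (-0.54) to -0.40 and -0.35, and each member other than Il1rn kept its sign under all alternatives run. The cause of these shifts was not tested. Pycard and Casp1 averaged below 6 and give little signal to compare.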

Other observations

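NZO replicate 1, without which the Il18, Nlrp6 and Il1rn differences lay nearer 0, also carried single markers far above the other 5 arrays. Cd8a, a T cell co-receptor, was at 9.55 on it, against 6.41 and 6.70 on the other NZO arrays and 6.60 to 6.70 in BKS. No other lymphocyte marker stood as far above the other arrays there. Cd3e was also highest on it, at 7.19 against 6.38 and 6.68 in NZO, while Cd3d at 5.55 lay between 5.13 and 5.79. The epithelial adhesion molecule Epcam was at 9.78, against 7.07 and 7.29 on the other NZO arrays and 7.07 to 7.73 in BKS. Other cholangiocyte markers were not raised on that array: Krt7 and Sox9 had their lowest NZO values there, at 4.54 and 5.76.

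Some acute phase genes varied widely among replicates. Saa1 was at 8.87, 13.06 and 10.27 in NZO and at 14.14, 12.11 and 12.04 in BKS, and Orm2 at 7.37, 9.70 and 9.01 in NZO and at 12.09, 9.24 and 8.71 in BKS. Neither passed (log2 fold changes -2.03 and -1.32, adjusted p = 0.533 and 0.666). BKS replicate 1 was the highest array in both and in Lcn2. Saa3 and Saa4 varied less, with Saa4 at 11.48, 12.21 and 12.01 in NZO and at 12.93, 13.05 and 12.88 in BKS (log2 fold change -1.06, adjusted p = 0.0943).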
